A study of Mus musculus with 8 samples.

Results

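The genes described here encode the subunits of voltage-gated sodium, calcium and potassium channels, of the remaining potassium channel families and of the ClC chloride channels. They were taken by symbol, as every counted gene that begins with Scn and a digit, Kcn, Cacn or Clcn, and 66 of the 12551 counted genes met that rule, which reads symbols only. The deposited table holds genes that reached at least 0.603 CPM (counts scaled to library size) in 4 libraries, so scarcer channel genes are outside it. Of the 66, 52 reached that level in all 8 libraries, 4 in every KL-/- but not every WT library, 3 in every WT but not every KL-/- library, and 7 in 4 or more libraries spread over both. RNA came from whole tibialis anterior (TA) muscles, a fast limb muscle, of male littermates aged 7 weeks, and 4 wild-type mice (WT, Klotho wt/wt) were compared with 4 mice lacking Klotho in every tissue (KL-/-, Klotho null/null). All mice were bred on a mixed background, with no other allele, transgene or treatment named. Read counts on genes totalled 20860262 to 29273758 per library, and WT and KL-/- totals gave p = 0.371 in an exact permutation test (two-sided, where 4 against 4 allows no p under 0.0286). The batch date in the labels of KL-/- replicate 3 differs from that of the 7 others, so its batch and its mouse cannot be told apart. *Kl* was not analysed here, so the genotypes rest on the labels. All 14 markers of skeletal muscle fibres were counted, and their summed level ran from 168892 to 189355 CPM in WT and from 199762 to 247448 CPM in KL-/- libraries.

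Ion channels of the muscle membrane carry the action potential from the nerve terminal along the fibre and into the transverse tubules. Sodium channels start it, the calcium channel of the tubules senses it and triggers calcium release, potassium channels and the ClC-1 chloride channel end it and hold the resting potential. Pore-forming subunits carry the current, whereas auxiliary subunits set where the pore sits and how it opens. Loss of the nerve is known to change several of these channels in muscle.

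Levels were compared between genes per length, as reads scaled by exon length and library size (RPKM, mean ± SD, n = 4), and they spread over several orders of magnitude. *Scn4b*, an auxiliary subunit gene of sodium channels, was among the most abundant, in WT and KL-/- muscle at 211 ± 16.0 and 189.6 ± 13.9 RPKM. *Cacna1s*, the pore and voltage sensor of the tubule calcium channel, was at 189 ± 7.30 and 219 ± 15.5 RPKM, and in KL-/- muscle it changed places with *Scn4b*. Its auxiliary subunit *Cacng1* followed at 166 ± 5.15 and 185 ± 29.7 RPKM, and *Scn4a*, the adult muscle sodium channel pore, was at 107 ± 11.0 and 96.6 ± 5.71 RPKM. The SDs of *Scn4b* and *Cacna1s* overlapped in WT muscle and those of *Scn4b* and *Cacng1* in KL-/- muscle, so these neighbours did not differ beyond their spread. The potassium channel pores *Kcnc4* (91.7 ± 8.52 RPKM in WT), *Kcna7* (76.7 ± 5.86) and *Kcnj11* (50.5 ± 4.82) and the chloride channel *Clcn1* (60.4 ± 4.92) completed the abundant set with the calcium channel genes *Cacna2d1*, *Cacng6* and *Cacnb1*. 19 of the 66 genes averaged 10 RPKM or more over the 8 libraries, and 47 lay below. Several genes best known from brain or heart were at the bottom, such as *Scn3a* at 0.0573 ± 0.0242 RPKM in WT. *Kcnq1ot1*, a noncoding transcript that the symbol rule also takes, was last, with the longest exon sequence of the set.

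**Figure D1:**
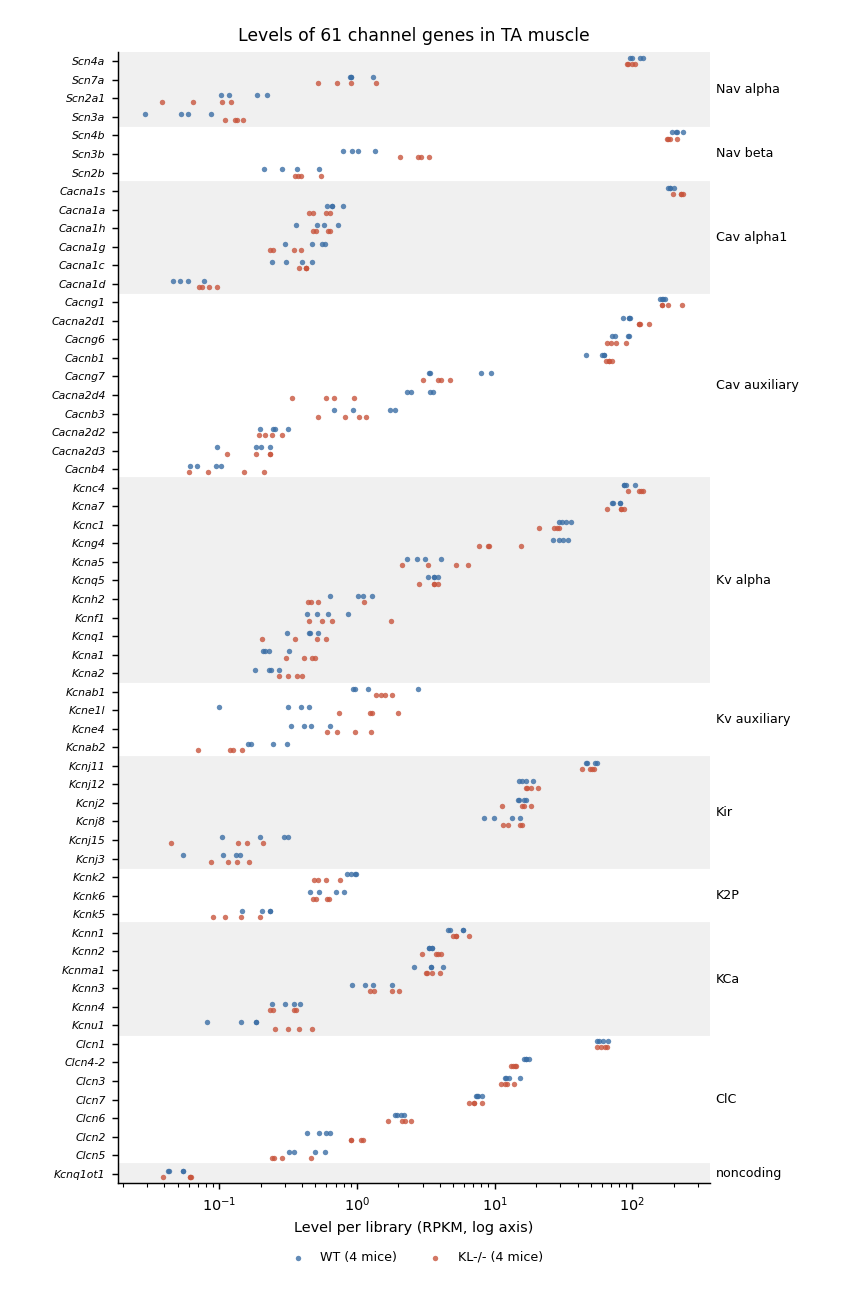
Level of 61 channel genes, in RPKM on a log axis, with 1 point per library (blue WT, red KL-/-) and genes grouped by channel family. Levels run from *Scn4b* at 211 ± 16.0 RPKM in WT down to *Kcnq1ot1* at 0.0486 ± 0.00667, and red and blue points part in few rows, among them *Kcng4*, *Cacna2d4* and *Scn3b*.

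Of the 66 channel genes, 12 had a Benjamini-Hochberg adjusted p (FDR) under 0.05 in edgeR's quasi-likelihood test, the test behind every FDR given here unless another is named, a share of 18.2%, where 14.0% of all 12551 genes passed. 7 were higher in KL-/- muscle (background 7.35%) and 5 were lower (background 6.67%). In 13 of the 66 the 4 KL-/- libraries lay on one side of the 4 WT libraries, which is 19.7%, and the share over all genes was also 19.7%. Both shares of channel genes lay near those of all genes. The median log2 fold change of the channel genes was 0.010, against −0.016 over all genes. *Kcne1l*, *Scn3a* and *Kcnu1* among the higher genes are in the table only through the KL-/- libraries, the group where they are high, so their increases and the count of higher genes are not free of that filter. They and *Kcnab2*, in the table only through the WT libraries, are among the 13 without overlap. That share is thus not free of the filter either. The higher genes were *Kcne1l*, *Scn3b*, *Kcnu1*, *Scn3a*, *Clcn2*, *Kcna1* and *Cacna2d1*. Among the lower genes were *Cacna2d4*, *Kcng4*, *Kcnk2* and *Clcn4-2*. Among the 19 genes at 10 RPKM or more, a line drawn after the values were seen, 3 passed, namely *Cacna2d1*, *Kcng4* and *Clcn4-2*, which is 15.8% where 20.8% of all genes at that level passed. Among the 47 genes below that line, 9 passed, which is 19.1% where 10.6% of all genes at that level passed. These 9 include *Kcne1l*, *Scn3a* and *Kcnu1*, with the filter limit given above. Of 18 channel genes listed as the core of the muscle membrane, 1 passed, *Cacna2d1*, which is 5.56% where 14.0% of all genes passed. Whether these shares differ from those of all genes was not tested. The counts per family given below stand beside the same shares of all genes, 7.35% higher and 6.67% lower, and were not tested either. In whole muscle, fewer cells of a type and less RNA per cell cannot be told apart. Markers of other cells moved with genotype beside these counts. The 10 markers of fibro-adipogenic cells summed to 1321 to 3638 CPM in WT and 661 to 1628 CPM in KL-/- libraries, with 4 of 10 lower at an FDR under 0.05, and their part in the changes below was not tested.

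**Figure D2:**
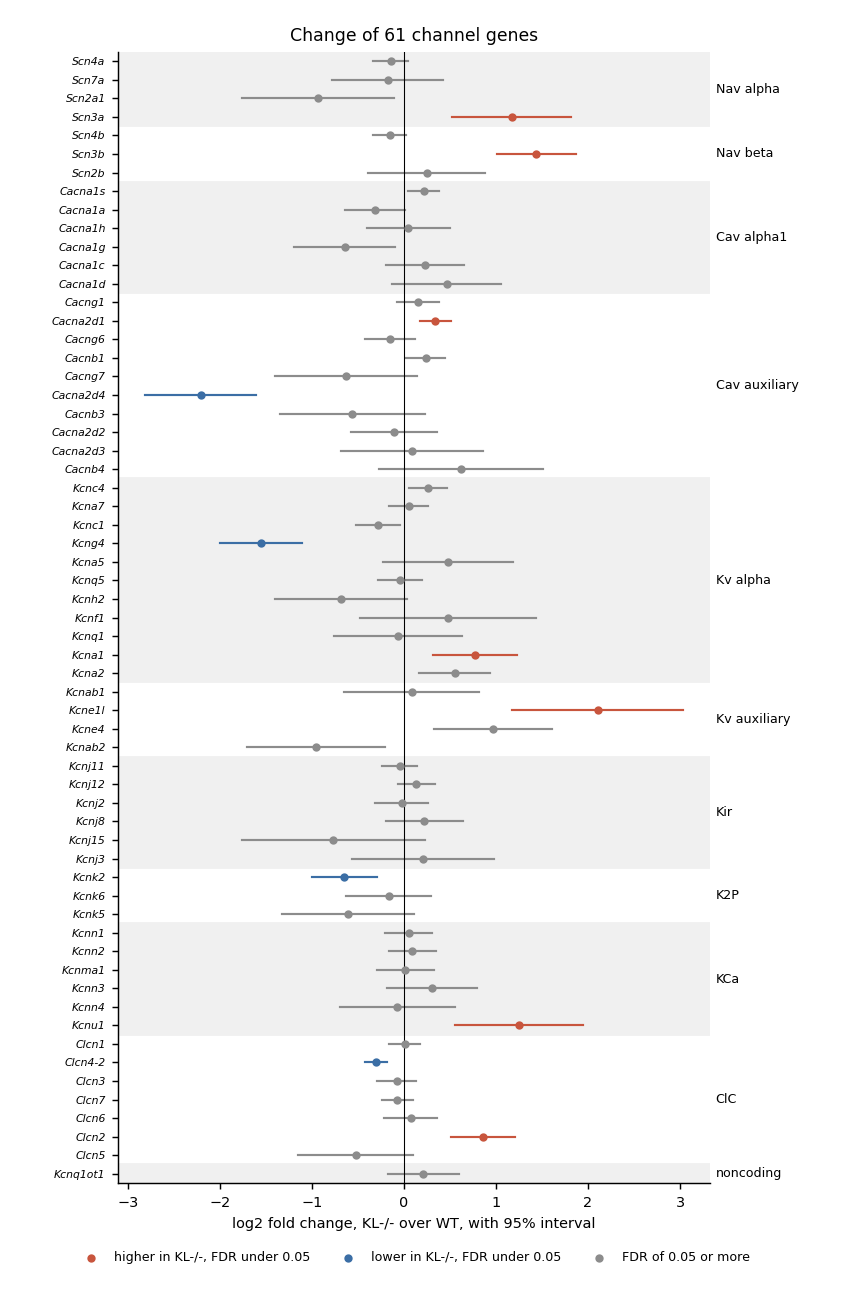
log2 fold change of 61 channel genes, KL-/- over WT, as a point with its 95% interval, grouped by family. Red points are the 7 genes that were higher and blue points 4 that were lower at an FDR under 0.05, from *Kcne1l* at 2.10 to *Cacna2d4* at −2.21, and the remaining points did not pass.

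The promoters of 3 changed genes from different families are shown, each with a single start in RefSeq, and the genes moved in both directions. They are RefSeq windows on GRCm38.p6, the build also named mm10, with 250 bases before and 50 after the start, read on the gene's minus strand, and capitals mark the E-box CAGCTG that muscle regulatory factors are known to bind. The *Kcng4* window is chr8:119635631-119635930, that of *Kcne1l* chrX:142306149-142306448 and that of *Clcn2* chr16:20716587-20716886. *Cacna2d1* also passed and has a single window, which is not shown and does not hold CAGCTG.
Kcng4: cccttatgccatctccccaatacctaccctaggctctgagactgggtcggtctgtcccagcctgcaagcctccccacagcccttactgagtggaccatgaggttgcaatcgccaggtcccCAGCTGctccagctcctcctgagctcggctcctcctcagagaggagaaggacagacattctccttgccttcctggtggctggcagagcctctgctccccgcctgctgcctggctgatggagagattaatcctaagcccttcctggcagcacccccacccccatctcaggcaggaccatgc
Kcne1l: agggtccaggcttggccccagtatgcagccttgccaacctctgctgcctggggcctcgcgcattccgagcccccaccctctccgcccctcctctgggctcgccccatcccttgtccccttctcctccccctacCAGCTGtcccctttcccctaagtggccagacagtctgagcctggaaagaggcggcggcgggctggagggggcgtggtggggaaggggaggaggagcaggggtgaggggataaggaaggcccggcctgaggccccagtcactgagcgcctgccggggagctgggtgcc
Clcn2: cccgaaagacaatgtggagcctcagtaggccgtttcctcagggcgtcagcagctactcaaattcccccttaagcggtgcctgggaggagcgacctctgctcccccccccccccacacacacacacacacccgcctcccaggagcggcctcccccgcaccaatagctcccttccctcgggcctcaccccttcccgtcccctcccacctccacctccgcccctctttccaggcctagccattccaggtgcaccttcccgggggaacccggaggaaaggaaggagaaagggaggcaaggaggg
CAGCTG, which reads the same on both strands, begins 130 bases before the start in *Kcng4*, which fell, and 117 bases before it in *Kcne1l*, which rose. It is not in the *Clcn2* window. Of all 32851 windows, 16.3% hold it, as do 18 of the 69 windows matched to 48 of the 66 channel genes. Of the 12 genes that passed, 6 had windows, and *Kcng4*, *Kcne1l* and *Kcnk2* (2 of its 4 windows) had CAGCTG. The core CTANNNNTAG of the MEF2 site, where N is any base, is in 3.69% of all windows and in 1 of the 69 windows of channel genes, and it was in 0 windows of the 6 genes. The letters of both motifs overlapped in 0 of the 32851 windows. A match is a description of these letters, not evidence of binding.

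Among the 14 pore-forming or modifier genes of voltage-gated potassium channels, which repolarize the fibre, 2 were lower, 1 was higher and 11 did not pass. *Kcng4* (chromosome 8, 119623854 to 119635680 of mm10) encodes Kv6.4, a subunit that is silent on its own and alters the channels it joins. It was at 120.2, 130.5, 111 and 100.3 CPM in WT replicates 1 to 4 and at 29.4, 59.2, 33.9 and 34.8 CPM in the KL-/- replicates. Every KL-/- library was far below every WT library, and KL-/- replicate 2 was the highest of its group. *Kcng4* was thus 2.94-fold lower in KL-/- muscle (log2 fold change −1.56, SE 0.20, FDR = 0.00307, edgeR quasi-likelihood test). It kept an FDR under 0.05 in all 8 fits that left out 1 sample, with a log2 fold change from −1.81 to −1.43.

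*Kcnc1*, an abundant pore gene of fast delayed rectifiers that let a cell fire repeatedly, was at 289, 277, 311 and 336 CPM in the WT mice, against 266, 199, 256 and 276 CPM in the KL-/- mice. All KL-/- values were below all WT values, but the log2 fold change of −0.28 had an FDR of 0.102, which was 0.0353 when scaled by library totals alone. *Kcnc4*, of the same subfamily, had the opposite sign, 0.26 (95% interval 0.051 to 0.47, FDR = 0.0904), with overlap between the groups, and its FDR was 0.0415 with DESeq2. Within each library, the ratio of *Kcnc4* to *Kcnc1* in RPKM was 3.40, 2.94, 2.61 and 2.52 in WT and 3.94, 5.63, 3.43 and 3.95 in KL-/- muscle. The groups did not overlap, but the highest WT ratio, 3.40, and the lowest KL-/- ratio, 3.43, nearly touched.

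*Kcna1* (chromosome 6, 126636463 to 126645801), whose Kv1.1 product is best known from myelinated axons, was at 1.88, 1.94, 2.86 and 2.08 CPM in the WT mice, against 2.72, 3.67, 4.23 and 4.49 CPM in the KL-/- mice. WT replicate 3 was above KL-/- replicate 1, and the others separated. Its log2 fold change was 0.78 (SE 0.20, FDR = 0.0353), and the call was lost without WT replicate 1, 2 or 4 and without KL-/- replicate 3 or 4 (FDR up to 0.0988). *Kcna2*, its partner in axons, had a log2 fold change of 0.55 (95% interval 0.17 to 0.94, FDR = 0.0604) and passed with DESeq2 and with the likelihood ratio test. The 10 Schwann cell markers summed to 59.6 to 107 CPM in WT and 112 to 137 CPM in KL-/- libraries, and 4 of them (*Sox10*, *Mbp* and *Prx* among them) were higher at an FDR under 0.05. Of 10 axon markers, 2 were counted, and their sum was 2.49 to 4.67 CPM in KL-/- against 4.05 to 4.54 CPM in WT libraries. The part of nerve cells in the *Kcna1* result was not tested.

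Several further genes of the family did not pass. *Kcna7*, the most abundant Kv1 gene, had a log2 fold change of 0.05 (95% interval −0.17 to 0.26, FDR = 0.753). The Kv7 gene *Kcnq5* stood at −0.044 (FDR = 0.802). *Kcnf1*, a silent subunit like *Kcng4*, had a wide interval around 0.48, from −0.48 to 1.43. *Kcna5* (0.48, FDR = 0.323), *Kcnh2* (−0.68, FDR = 0.175) and *Kcnq1* (−0.063, FDR = 0.907) did not pass either. Without KL-/- replicate 2, *Kcnh2* passed.

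**Figure D3:**
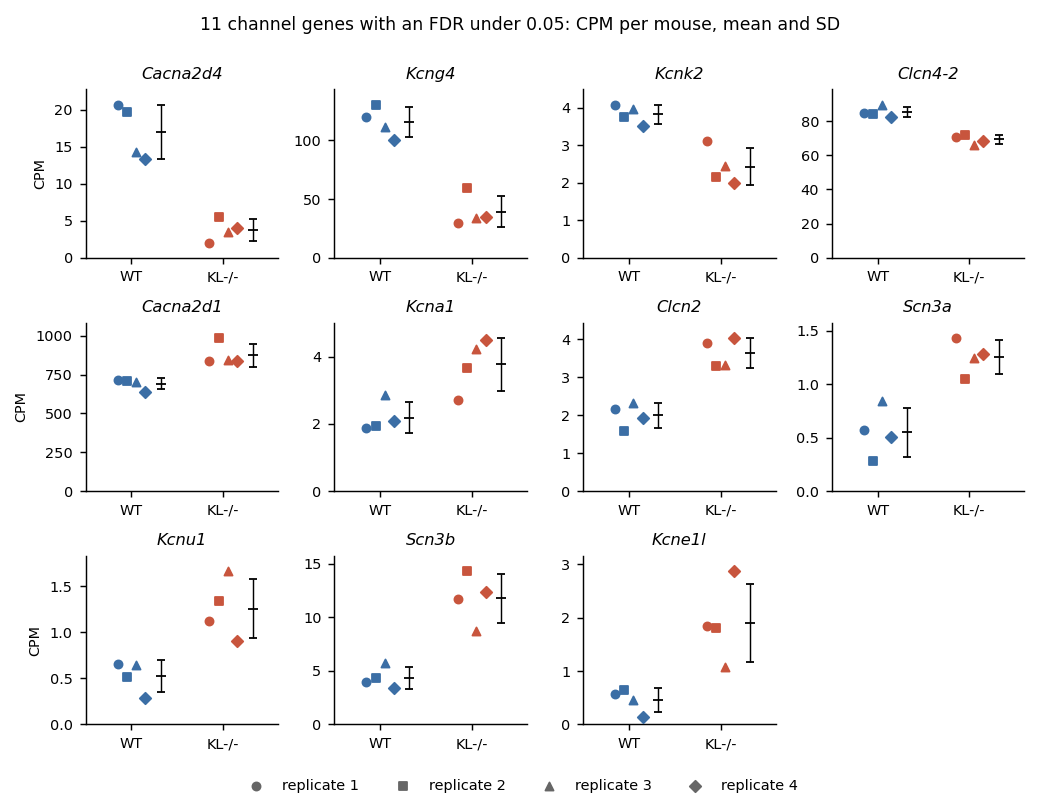
Level in CPM of 11 channel genes with an FDR under 0.05, 1 panel per gene from the largest decrease to the largest increase, with 1 symbol per mouse and the mean and SD in black. The groups part in 10 of the panels and overlap in *Kcna1*.

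Of the 16 calcium channel genes, the 6 pore genes did not pass and 1 of the 10 auxiliary genes was higher and 1 lower. *Cacna2d4* (chromosome 6, 119236526 to 119352407), an alpha2delta subunit known from photoreceptor synapses, was at 20.7, 19.6, 14.2 and 13.4 CPM in the WT mice, against 1.95, 5.49, 3.44 and 3.96 CPM in the KL-/- mice. The highest KL-/- value was well under the lowest WT value. The decrease was 4.63-fold (log2 fold change −2.21, SE 0.27, FDR = 0.00273), the largest fall among the channel genes, and its log2 fold change stayed between −2.44 and −1.98 with each sample left out.

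*Cacna2d1* (chromosome 5, 15934691 to 16374511), the alpha2delta subunit of the muscle calcium channel, moved the other way. It was at 716, 709, 704 and 637 CPM in the WT mice, against 836, 986, 845 and 838 CPM in the KL-/- mice, where WT replicate 4 was the lowest and KL-/- replicate 2 stood above the rest. Its rise was 1.27-fold (log2 fold change 0.34, SE 0.077, FDR = 0.0217), and the FDR was 0.0536 when scaled by library totals alone. The call was also lost without WT replicate 2 or 3 (FDR up to 0.0548). The alpha2delta balance changed with both genes: *Cacna2d4* made up 3.04 ± 0.538% (SD, n = 4) of the summed RPKM of the 4 alpha2delta genes in WT and 0.534 ± 0.174% in KL-/- muscle. *Cacna2d2* (0.254 ± 0.0485 RPKM in WT) and *Cacna2d3* (0.179 ± 0.0578) did not pass, with log2 fold changes of −0.11 and 0.087.

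*Cacna1s* itself was at 1246, 1176, 1177 and 1136 CPM in the WT mice, against 1452, 1405, 1402 and 1231 CPM in the KL-/- mice. 3 KL-/- values exceeded all WT values and replicate 4 did not, and the log2 fold change of 0.21 (95% interval 0.045 to 0.38, FDR = 0.0855) did not pass, except with DESeq2 (adjusted p = 0.0125). An antisense gene covers 19.4% of its exon length, and strand use in the counting is not given in the sources used here. *Cacnb1*, the beta subunit that docks the channel at the tubule, was at 238, 238, 232 and 177 CPM in the WT mice, against 249, 261, 262 and 271 CPM in the KL-/- mice. The groups did not overlap, WT replicate 4 lay far below its group, and the log2 fold change was 0.24 (95% interval 0.026 to 0.45, FDR = 0.118). The gamma genes *Cacng1* (0.15, FDR = 0.314), *Cacng6* (−0.15, FDR = 0.421) and *Cacng7* (−0.63, FDR = 0.238) did not pass. *Cacna1s* made up 98.9 ± 0.209% of the summed RPKM of the 6 pore genes in WT and 99.1 ± 0.0891% in KL-/- muscle. The T-type pores *Cacna1g* (−0.64, FDR = 0.106) and *Cacna1h* (0.047, FDR = 0.893) and the neuronal *Cacna1a* (−0.32, FDR = 0.168) were each under 1 RPKM and did not pass. Without WT replicate 4, *Cacna1g* passed. *Cacna1c*, the cardiac and smooth muscle pore, and *Cacna1d* had log2 fold changes of 0.23 and 0.46, and *Cacnb3* and *Cacnb4* of −0.56 and 0.62, and these 4 genes did not pass.

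Of the 9 sodium channel genes, 2 were higher and 0 were lower, where 7.35% of all genes were higher and 6.67% lower. *Scn3a*, 1 of the 2, has the filter limit given above. *Scn3b* (chromosome 9, 40269216 to 40291618), an auxiliary subunit best known from neurons, was at 3.92, 4.30, 5.76 and 3.37 CPM in the WT mice, against 11.7, 14.3, 8.74 and 12.4 CPM in the KL-/- mice. The lowest KL-/- value, in replicate 3, was above the highest WT value, also in a replicate 3. It rose 2.71-fold (log2 fold change 1.44, SE 0.19, FDR = 0.00375), and all 8 fits without 1 sample kept the call, with log2 fold changes from 1.33 to 1.61.

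*Scn3a* (chromosome 2, 65457118 to 65567492), the pore Nav1.3 of the developing nervous system, drew 14, 6, 22 and 14 reads in the 4 WT mice, against 41, 22, 30 and 34 reads in the 4 KL-/- mice. These counts correspond to 0.572, 0.278, 0.839 and 0.502 CPM and 1.43, 1.05, 1.24 and 1.28 CPM, without overlap. The log2 fold change of 1.17 (SE 0.29, FDR = 0.0289) rests on few reads in a gene that reached 0.603 CPM in 1 WT and 4 KL-/- libraries, and the call was lost without WT replicate 1, 2 or 4 and without KL-/- replicate 1, 3 or 4 (FDR up to 0.0726).

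*Scn4a*, the pore that carries the action potential of the adult fibre, was at 746, 633, 654 and 784 CPM in the WT mice, against 684, 651, 612 and 603 CPM in the KL-/- mice. The groups overlapped, and the log2 fold change was −0.14 (95% interval −0.33 to 0.047, FDR = 0.271). *Scn4b* had a log2 fold change of −0.16 (95% interval −0.34 to 0.025, FDR = 0.213). *Scn7a* (−0.18, FDR = 0.679), *Scn2a1* (−0.94, FDR = 0.116) and *Scn2b* (0.25, FDR = 0.577) did not pass.

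Of 4 auxiliary genes of voltage-gated potassium channels, 1 was higher. *Kcne1l* (chromosome X, 142304753 to 142306198), a single-span subunit of the KCNE family also named Kcne5, drew 14, 14, 12 and 4 reads in the 4 WT mice, against 53, 38, 26 and 76 reads in the 4 KL-/- mice. At 0.572, 0.648, 0.458 and 0.143 CPM in the WT mice, against 1.85, 1.81, 1.08 and 2.86 CPM in the KL-/- mice the groups did not overlap, WT replicate 4 was the lowest and KL-/- replicate 4 the highest. 1 WT and 4 KL-/- libraries reached the 0.603 CPM of the table. The increase was 4.30-fold (log2 fold change 2.10, SE 0.41, FDR = 0.0133), with a 95% interval from 1.18 to 3.03 on the log2 scale. Its call held in all 8 fits without 1 sample, which share the filter limit given above. *Kcne4*, a KCNE subunit that dampens Kv channels, had a log2 fold change of 0.97 (95% interval 0.32 to 1.61, FDR = 0.0528) and passed with DESeq2 and the likelihood ratio test. *Kcnab1* (0.082, FDR = 0.883) and *Kcnab2* (−0.95, FDR = 0.0856) did not pass, and in *Kcnab2* all KL-/- values lay below all WT values. With the likelihood ratio test *Kcnab2* passed. It reached 0.603 CPM in 4 WT and 0 KL-/- libraries, so its separation and that call are not free of that filter.

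The inward rectifiers hold the resting potential and couple it to metabolism, and 0 of their 6 genes passed. *Kcnj2*, the Kir2.1 pore whose loss causes periodic paralysis, was at 80.8, 92.3, 88.5 and 81.7 CPM in the WT mice, against 101, 86.1, 61.9 and 88.8 CPM in the KL-/- mice, and KL-/- replicate 3 was the lowest of all. Its log2 fold change was −0.024 (95% interval −0.31 to 0.26, FDR = 0.912), beside *Kcnj12* (Kir2.2) at 0.13 (95% interval −0.067 to 0.34, FDR = 0.327). *Kcnj11*, the pore of the ATP-sensitive channel of muscle, had −0.047 (95% interval −0.24 to 0.15, FDR = 0.739), and *Kcnj8*, the form found in pericytes and smooth muscle, 0.22 (95% interval −0.20 to 0.64, FDR = 0.441). The 10 listed markers of those mural cells summed to 3067 to 3139 CPM in WT and 2966 to 4522 CPM in KL-/- libraries. They include *Des*, which muscle fibres also express, so this sum does not measure mural cells alone. *Kcnj15* (0.228 ± 0.0970 RPKM in WT, log2 fold change −0.77, FDR = 0.260) and *Kcnj3* (0.108 ± 0.0385 RPKM, log2 fold change 0.21, FDR = 0.705) did not pass.

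Of 3 leak channel genes of the K2P family, *Kcnk2* (chromosome 1, 189207930 to 189402273), the mechanosensitive TREK-1, was lower. It was at 4.08, 3.75, 3.97 and 3.51 CPM in the WT mice, against 3.10, 2.15, 2.45 and 2.00 CPM in the KL-/- mice, where KL-/- replicate 1 came closest to the WT values without reaching them (log2 fold change −0.65, SE 0.16, FDR = 0.0282). The call was lost without WT replicate 1, 2 or 3 and without KL-/- replicate 3 or 4 (FDR up to 0.0769), and an antisense gene covers 11.6% of its exon length. *Kcnk6* (−0.17, FDR = 0.605) and *Kcnk5* (−0.61, FDR = 0.220) did not pass.

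Of 6 genes of calcium-activated potassium channels and their relatives, *Kcnu1* (chromosome 8, 25849623 to 25937934), which encodes the sperm channel Slo3, was higher. It drew 16, 11, 17 and 8 reads in the 4 WT mice, against 32, 28, 40 and 24 reads in the 4 KL-/- mice, without overlap after scaling (log2 fold change 1.25, SE 0.31, FDR = 0.0301). It reached 0.603 CPM in 2 WT and 4 KL-/- libraries. The call was lost without WT replicate 2, 3 or 4 and without KL-/- replicate 1 or 3 (FDR up to 0.0846). *Kcnn3*, the SK3 channel known to appear in denervated muscle, was at 6.98, 8.79, 9.95 and 13.6 CPM in the WT mice, against 10.1, 9.45, 13.6 and 15.4 CPM in the KL-/- mice. The groups overlapped, and the log2 fold change was 0.30 (95% interval −0.19 to 0.79, FDR = 0.363). *Kcnma1*, the large-conductance BK pore, stood at 0.014 (95% interval −0.29 to 0.32, FDR = 0.955). *Kcnn1* (0.05, FDR = 0.795), *Kcnn2* (0.092, FDR = 0.605) and *Kcnn4* (−0.075, FDR = 0.876) did not pass.

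Of 7 ClC genes, 1 was higher and 1 lower. *Clcn2* (chromosome 16, 20702966 to 20716636), a widely expressed plasma membrane chloride channel, was at 2.16, 1.57, 2.33 and 1.94 CPM in the WT mice, against 3.91, 3.29, 3.32 and 4.03 CPM in the KL-/- mice. The groups did not overlap, and it rose 1.81-fold (log2 fold change 0.86, SE 0.16, FDR = 0.0102) with the call kept in all 8 fits without 1 sample. A gene on the other strand covers 2.28% of its exon length. *Clcn4-2* (chromosome 7, 7282309 to 7300851), an endosomal exchanger named Clcn4 in RefSeq, was at 84.9, 84.4, 89.6 and 82.4 CPM in the WT mice, against 70.5, 72.1, 65.9 and 68.5 CPM in the KL-/- mice. Values within each genotype lay close together, and the fall of 1.23-fold passed (log2 fold change −0.30, SE 0.054, FDR = 0.00983), also without each sample in turn. With replicate number as a block, *Clcn4-2* did not pass (FDR = 0.0541). An antisense gene covers 5.07% of its exon length. *Clcn1*, the main chloride conductance of muscle and the gene of myotonia, was at 237, 204, 197 and 218 CPM in the WT mice, against 209.5, 223, 198 and 231 CPM in the KL-/- mice. The KL-/- values lay within the WT range and the log2 fold change was 0.0067 (95% interval −0.16 to 0.17, FDR = 0.961). In RPKM *Clcn1* exceeded *Clcn2* by a ratio of 112 ± 19.0 in WT and 61.2 ± 6.09 in KL-/- muscle. The endosomal and lysosomal exchangers *Clcn3* (−0.079, FDR = 0.601), *Clcn5* (−0.53, FDR = 0.224), *Clcn6* (0.072, FDR = 0.734) and *Clcn7* (−0.071, FDR = 0.556) did not pass. *Kcnq1ot1*, the noncoding transcript, had a log2 fold change of 0.21 (FDR = 0.431).

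**Figure D4:**
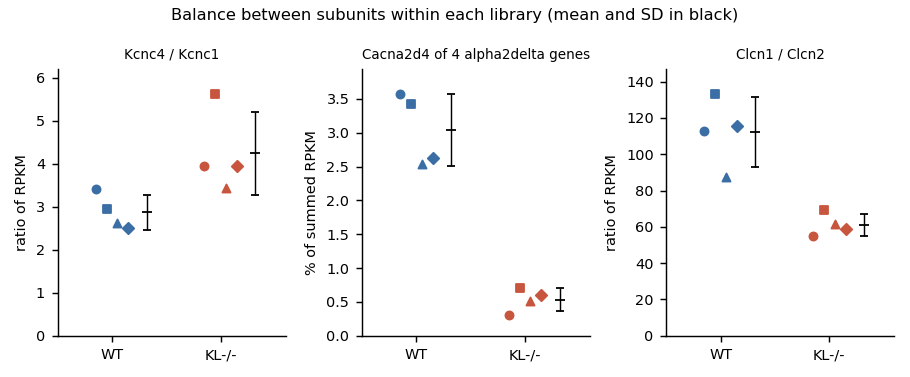
Balance between related channel subunits within each library, from RPKM, with 1 symbol per mouse (replicates 1 to 4 as circle, square, triangle and diamond) and the mean and SD in black. From left to right the panels give *Kcnc4* over *Kcnc1*, *Cacna2d4* as a share of 4 alpha2delta genes and *Clcn1* over *Clcn2*. The genotypes part in each of the 3, narrowly in *Kcnc4* over *Kcnc1*. Of the ratios not shown, some parted as well and others overlapped, such as *Kcnj12* over *Kcnj2* and *Cacna2d1* over *Cacna1s*.

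Over the 12 genes that passed, KL-/- replicate 2 was the KL-/- library nearest to the WT mean in 6, replicate 1 in 3, replicate 3 in 2 and replicate 4 in 1. Without KL-/- replicate 2, 15 channel genes had an FDR under 0.05, beside 22.0% of all genes, and the 15 included all 12. Without KL-/- replicate 3, the library of the other batch date, 8 passed, beside 6.07% of all genes, and 7 of the 12 were among them. Without WT replicate 2 the count was 6, the lowest of the 8 fits, beside 6.21% of all genes. *Cacna2d4*, *Clcn2*, *Clcn4-2*, *Kcng4*, *Scn3b* and, with the filter limit given above, *Kcne1l* passed in every one of these fits.

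**Figure D5:**
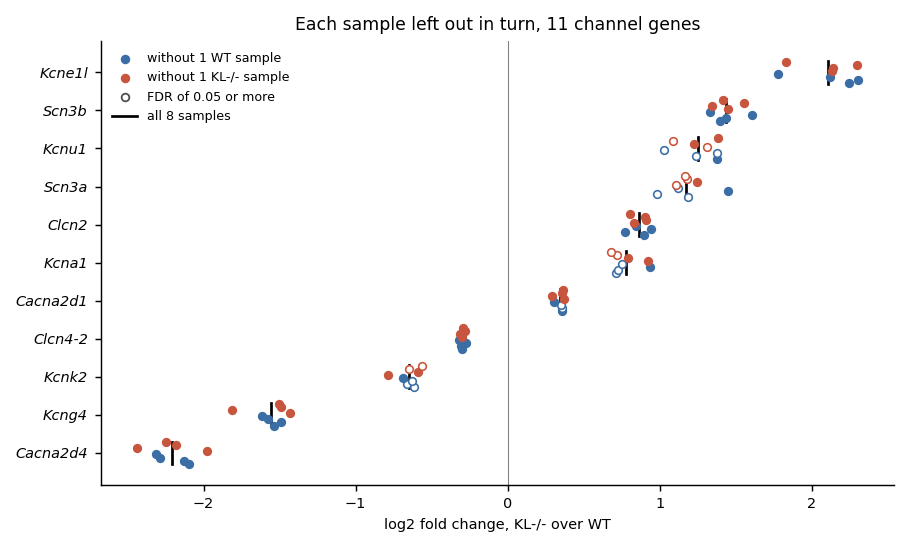
log2 fold change of 11 channel genes that passed, with each of the 8 samples left out in turn (blue without a WT sample, red without a KL-/- sample) and the value from all samples as a black bar. Filled points have an FDR under 0.05. Rows with filled points only are the 6 genes that passed in all 8 fits, and no point crosses 0. *Kcne1l*, among the 6, is in the data only through the KL-/- libraries, so its fits are not free of that filter.

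Genes that work with these channels without matching the symbol rule were listed apart, and 49 of 65 were counted. 4 were higher and 4 lower at an FDR under 0.05, a share of 16.3%, near the 14.0% over all genes. Among the higher were *Sntb1*, a syntrophin that links membrane proteins to the dystrophin complex, at 3.99 ± 0.616 CPM in the WT mice, against 12.9 ± 2.85 CPM in the KL-/- mice (SD, n = 4, log2 fold change 1.70, SE 0.18, FDR = 0.00226). *Ryr1*, the calcium release channel that Cav1.1 controls, rose 1.32-fold (FDR = 0.0359), *Fxyd6*, a regulator of the sodium pump, 1.59-fold (FDR = 0.0324) and *Trpm7* 1.26-fold (FDR = 0.0207). Scaled by library totals alone, these 3 did not pass (FDR of 0.0731 for *Ryr1*, 0.0524 for *Fxyd6* and 0.0636 for *Trpm7*). Both counted genes for gamma subunits of the BK channel fell, *Lrrc55* by a factor of 4.49 (FDR = 0.00668) and *Lrrc38* by 1.43 (FDR = 0.0413), while the BK pore *Kcnma1* did not pass. The KL-/- mean of *Lrrc55*, 0.421 ± 0.213 CPM, lay under the 0.603 CPM of the table, and its WT mean was 1.86 ± 0.517 CPM. *Lrrc55* is thus in the table at least in part through the WT libraries, the group where it is high. Its fall and the count of lower partner genes are therefore not free of that filter. *Ostm1*, the partner that ClC-7 needs, fell from 46.6 ± 2.57 to 31.4 ± 4.30 CPM (log2 fold change −0.57, SE 0.10, FDR = 0.00760), while *Clcn7* did not pass. *Ank2*, an ankyrin that anchors membrane transporters, was 1.25-fold lower (FDR = 0.0460). *Abcc9*, the regulatory subunit of the ATP-sensitive channel (−0.034, FDR = 0.811), and *Stac3*, which Cav1.1 needs to work (−0.28, FDR = 0.0991), did not pass. *Sntb1*, *Ostm1* and, with the filter limit given above, *Lrrc55* passed in all 8 fits without 1 sample, and the other 5 lost the call in 3 to 7 of them. Whether partners and pores differed from each other in their change was not tested.

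Of the remaining marker lists, the 10 macrophage markers summed to 42.6 to 97.9 CPM in WT and 30.6 to 60.2 CPM in KL-/- libraries, with 3 lower. The 10 endothelial markers summed to 542 to 816 CPM and 501 to 556 CPM, with 1 lower. The 7 adipocyte markers counted summed to 186 to 218 CPM and 218 to 298 CPM, with 1 higher. The 10 lymphocyte markers were not analysed here. In the lists above, the mural cell marker *Tagln* and the muscle fibre marker *Actn3* were higher. Their part in the channel results was not tested.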

How the data were processed

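After FastQC, the authors mapped reads to mm10 with STAR, dropped poorly mapped ones and used featureCounts per gene. The deposited counts are whole numbers without normalization, and each gene reached at least 0.603 CPM (by library totals) in 4 libraries. The annotation release and the strand setting are not given in the sources used here. In 19 of the 66 channel genes an exon overlaps an exon of another GENCODE M21 gene on the opposite strand, among them 4 of the 12 that passed. The labels name total RNA and the methods mRNA. RPKM used the deposited exon lengths.

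Counts were analysed with edgeR 4.0.16 in R 4.3.3 (filterByExpr defaults, which kept all 12551 genes, TMM factors, quasi-likelihood test on genotype, Benjamini-Hochberg adjustment over all genes, called FDR, threshold 0.05). CPM uses TMM-scaled library sizes, SEs come from the test statistic, and a floor of 3 counts is 0.105 to 0.143 CPM, which covers counting error only. No 2 libraries of a genotype were duplicates (chi-square per gene of 9.91 or more, where sampling noise gives about 1). Alternatives used limma 3.58.1 and DESeq2 1.42.0 and are given at the end. Named genes are the 12 that passed, the listed muscle core genes and the 3 most abundant genes of each family, and partners that passed. Others are named to account for the remaining channel genes and were chosen after their values were seen. Some genes are counted but not reported here by name, and the plots leave them out. Members and lists were chosen with earlier results of these data known. *Kcne3*, the remaining core gene, was not analysed here.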

Additional observations from a re-analysis of the deposited data

Results flagged for a closer look

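In 8 of 86 groups of 4 libraries, covering 43 channel genes, 1 library lay apart from the other 3 by more than Dixon's 95% limit, and chance flags about 1 in 20 groups. WT replicate 4 was low in *Cacnb1* (177 CPM against 232 to 238) and in *Cacna2d1* (637 CPM against 704 to 716), and high in *Kcnab1* (9.61 CPM against 3.28 to 4.16). Without it, *Kcnab1* passed (log2 fold change 0.60, FDR = 0.0378). WT replicate 3 was high in *Scn7a* (9.57 CPM against 6.49 to 6.66). KL-/- replicate 2 was high in *Cacna2d1* (986 CPM against 836 to 845) and low in *Kcna7* (227 CPM against 290 to 302). KL-/- replicate 3 was low in *Kcnq1ot1* (3.27 CPM against 5.09 to 5.20), and KL-/- replicate 4 was high in *Kcnn1* (26.2 CPM against 20.3 to 21.2). What sets these libraries apart was not tested.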

How the results depend on the processing

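Of 860 values for single genes under an alternative, 776 kept their side of the threshold, 74 lost an FDR under 0.05, 10 gained one and 0 reversed a call. RLE factors, limma-voom, the edgeR 3 quasi-likelihood test and no filter each called the same 12 channel genes. With library totals, which shifted the median over all genes from −0.016 to −0.13 (log2) and the share of higher calls over all genes from 52.4% to 18.8%, 13 passed beside 20.9% of all genes, 6 higher and 7 lower, without *Cacna2d1* and with *Kcnc1* and *Scn4b* added. DESeq2 called 16 beside 19.6% of all genes, 11 of them higher, and 13 partner genes, and the likelihood ratio test 15 beside 16.9% of all genes. A minimum of 10 counts in every sample took 9 channel genes out of the test and left 4 higher calls.

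With the replicate block, 5 channel genes passed (3 higher, 2 lower, beside 5.35% of all genes), with 3 partner genes and 671 of all genes. Among the channel genes that lost the call were *Clcn4-2* (FDR = 0.0541), *Cacna2d1* (FDR = 0.0613), *Kcna1*, *Kcnk2*, *Kcnu1* and *Scn3a*. Deviations of same-numbered samples from their group means correlated at −0.16, 0.19, −0.40 and 0.015 for replicates 1 to 4. 1 of 4 WT samples correlated best with its own number. These correlations cannot decide whether the mice were paired, since all differences between mice of a genotype enter them. With each sample left out, 6 to 15 channel genes passed, 3 to 8 higher and 3 to 7 lower, 3 to 14 partner genes, and 762 to 2755 of all genes. Ranking by CPM in place of RPKM kept 8 of the 10 most abundant channel genes among the first 10. Where a setting changed a call, the cause was not tested. *Scn3a*, *Kcnu1* and *Kcne1l* drew 4 to 76 reads per library.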
